A study of Mus musculus with 6 samples.

Results

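The creatine kinase system and the purine nucleotide cycle were described here through 10 genes, picked by symbol from the 24532 genes of a table of bulk RNA-seq of gastrocnemius (GAS) muscle. The genes were *Ckm*, *Ckmt2*, *Ckb*, *Slc6a8*, *Gamt*, *Gatm*, *Ampd1*, *Ampd3*, *Adssl1* and *Ak1*, and all 10 were found in the table and kept by the filter on low counts, as were 13801 genes in all. The mice were males on C57BL/6, 20 weeks old. The 3 WT mice carried *Sirt6* flox/flox without Cre, and the 3 *Sirt6* KO mice carried *Myl1-Cre* and *Sirt6* flox/flox, so that both groups had the floxed alleles and the controls had no Cre. *Myl1-Cre* acts mainly in fast (type II) fibers, and whole GAS muscle also holds slow fibers, vessels, nerve and other cells that need not have lost *Sirt6*. In such bulk tissue, fewer cells of a type and less RNA per cell cannot be told apart.

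*Sirt6* itself was at 3.90, 2.93 and 3.25 TPM (a level scaled to gene length and library) in WT and at 9.62, 8.69 and 7.75 in the libraries labelled KO. Its log2 change was 1.48 ± 0.17 (SE, edgeR adjusted p = 0.0113), and the adjusted p lay between 0.00483 and 0.065 with 1 library left out. The targeted gene was thus above every WT value in each library labelled KO, which goes against the label, and counts per gene do not show which exons were read. Every direction below therefore rests on the labels alone. Libraries held between 44845763 and 63016899 counts on genes. The muscle identity was plain from its markers: the 10 fast-fiber markers together summed to between 165067 and 223826 TPM. Calls over all genes moved with every library left out. With all 6 libraries 1084 genes were called higher and 1158 lower. These numbered only 6 and 2 without KO 1, 8 and 5 without KO 3, but 2363 and 2219 without WT 3. Without WT 2, WT 1 and KO 2 there were 249, 440 and 873 calls in either direction.

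Muscle stores a fast reserve of high-energy phosphate as phosphocreatine. Creatine is made from glycine and arginine by GATM (the amidinotransferase) and GAMT (the methyltransferase), mainly outside muscle, and enters fibers through the transporter SLC6A8. Cytosolic creatine kinase (muscle form CKM, brain form CKB) uses phosphocreatine to restore ATP at the myofibrils, while the sarcomeric mitochondrial form CKMT2 charges creatine at the mitochondria. Adenylate kinase (AK1) makes ATP and AMP from ADP, and the purine nucleotide cycle then handles the AMP. AMP deaminase (AMPD1 in muscle, AMPD3 in red cells) turns AMP into IMP, adenylosuccinate synthetase (ADSSL1 in muscle) and adenylosuccinate lyase (ADSL) bring it back to AMP, and fumarate is released on the way.

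The 3 creatine kinase genes lie on different chromosomes of GRCm38 (mm10) and are shown by the bases just before their start sites, since these isozymes of 1 family had mean TPM that differed by up to 7067 times. *Ckm* (NCBI gene 12715) spans 19411094 to 19421583 on chromosome 7, *Ckmt2* (gene 76722) 91853386 to 91876923 on chromosome 13, and *Ckb* (gene 12709) 111669355 to 111672338 on chromosome 12. The stretches below are RefSeq promoter sequence on GRCm38.p6, 5′ to 3′ on the gene's strand, each ending at the last base before the start in RefSeq's promoter table. For *Ckmt2* that start lies inside the gene span given above, and its distances are counted from it. Capitals mark the E-box CAGCTG (the kind bound by myogenic factors) or the TATA box TATAAA.
Ckm, chr7:19410844-19411093, plus strand: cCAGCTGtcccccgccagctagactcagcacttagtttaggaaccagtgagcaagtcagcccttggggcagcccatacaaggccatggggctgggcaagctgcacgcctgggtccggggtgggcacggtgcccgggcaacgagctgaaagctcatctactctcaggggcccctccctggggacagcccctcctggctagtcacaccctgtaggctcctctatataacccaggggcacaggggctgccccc
Ckmt2, chr13:91876886-91877135, minus strand: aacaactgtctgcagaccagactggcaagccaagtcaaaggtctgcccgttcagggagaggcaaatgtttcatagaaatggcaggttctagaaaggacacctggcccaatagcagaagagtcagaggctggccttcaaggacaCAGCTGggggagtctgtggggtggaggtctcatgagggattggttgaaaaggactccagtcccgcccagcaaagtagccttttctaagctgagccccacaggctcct
Ckb, chr12:111672339-111672588, minus strand: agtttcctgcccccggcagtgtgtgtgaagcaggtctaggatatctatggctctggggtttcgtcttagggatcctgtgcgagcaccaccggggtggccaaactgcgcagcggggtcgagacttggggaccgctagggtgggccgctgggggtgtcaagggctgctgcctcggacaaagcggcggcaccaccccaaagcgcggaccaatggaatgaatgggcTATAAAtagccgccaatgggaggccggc

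Over the 250 bases before the start, searched on both strands, CAGCTG began 249 bases before the start of *Ckm* and 107 bases before that of *Ckmt2*, and was not in the *Ckb* window. TATAAA began 28 bases before the start of *Ckb* and was in neither of the other two. Only these exact letters were searched, so near forms such as tatataa, which the *Ckm* stretch holds, were not counted. CAGCTG was in 13.0% of the 32851 windows of the same length in the reference, and TATAAA in 12.4%. The cAMP response element TGACGTCA, the site of CREB, was in 1.55% of all windows and in none of those held for 8 of the 10 genes. Its shorter form TGACG, which the full element contains, was in 17.8% of all windows and, among these genes, began 55 bases before the start of *Adssl1*. CAGCTG was also in 2 of the 4 windows of *Ak1*, beginning 177 and 227 bases before the start. These matches describe letters in these windows only. GC content before the start was 64.8% for *Ckm*, 62.8% for *Ckb* and 54.0% for *Ckmt2*, against a median of 52.4% over all windows.

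The 10 genes spanned a range of 11366 times in mean TPM over the 6 libraries, from *Ckm* at 36492 to *Gatm* at 3.21. *Ckm* was among the 4 most abundant genes of every library, taking between 2.74% and 4.32% of all TPM. Below it, 4 genes formed a middle tier: *Ckmt2* at a mean of 2166, *Ak1* at 1401, *Adssl1* at 1182 and *Ampd1* at 884. Neighbours within this tier overlapped in range, and *Ckmt2* exceeded *Ak1* in only 3 of the 6 libraries. *Slc6a8*, at 78.2, lay apart from both its neighbours. *Gamt* at 18.8, *Ampd3* at 8.25, *Ckb* at 5.16 and *Gatm* at 3.21 closed the order, each overlapping the next in range and above it in 5 of 6 libraries.

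**Figure D1:**
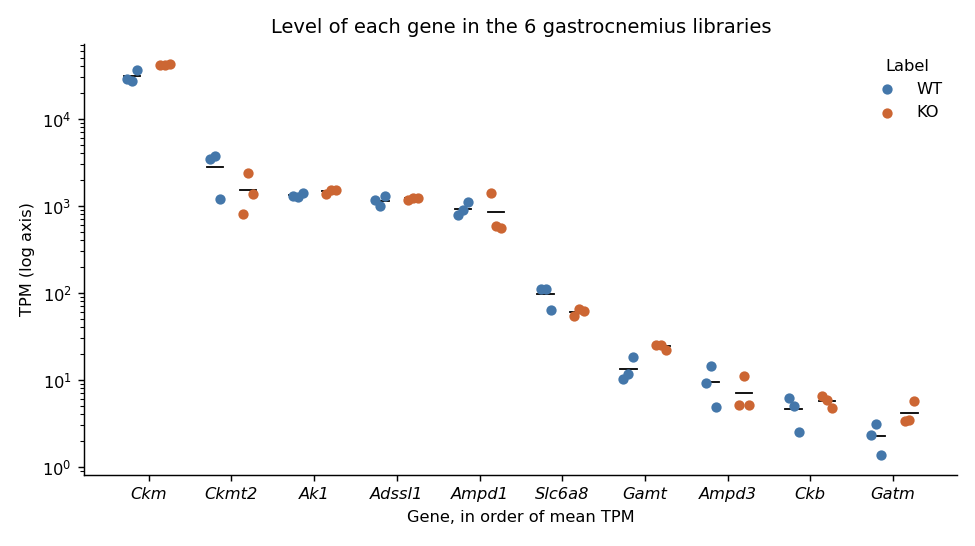
TPM (log axis) of the 10 genes in each library, with WT in blue and the libraries labelled KO in orange; each dot is 1 library and each line the mean of 3. *Ckm* sits alone at the top near 36492 TPM, a middle tier of 4 genes lies near 884 to 2166, and the KO dots of *Ckm*, *Gamt* and *Gatm* lie above all WT dots.

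None of the 10 genes differed between the labels at an adjusted p under 0.05 in edgeR's quasi-likelihood test, where 16.2% of all genes tested did (7.85% higher and 8.39% lower in the libraries labelled KO). At an unadjusted p under 0.05 there were 3 (*Gamt*, *Gatm* and *Slc6a8*), against 35.3% of all genes. DESeq2 called these 3 and *Ckm*, 4 of 10, against 24.4% of the genes to which it gave an adjusted p. The 3 values of each label lay apart in 4 of the 10 genes on normalized CPM (counts scaled to library size), against 40.0% of all genes: *Ckm*, *Gamt* and *Gatm* were higher (20.3% of all genes were) and *Slc6a8* lower (19.6% were). The median log2 fold change was 0.22 over the 10 genes and -0.021 over all genes tested. The first shares lay below the background, that of separated groups was at it, and that of DESeq2 above it. With only 10 genes, a few genes make up each of these differences, so they are no result about the list.

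The outcome depended on WT 3. Without that library 5 of the 10 genes passed edgeR's adjusted threshold (*Ckm*, *Gamt*, *Adssl1* and *Ak1* higher, *Slc6a8* lower), when 32.5% of all genes did. Leaving out any of the other 5 libraries gave 0 of the 10, when 8 to 873 of all genes were called. The fold changes also moved with the GC content of the genes. With a lowess trend over GC content removed in each library, a correction added after the values were seen, *Slc6a8* alone passed (edgeR adjusted p = 0.0499), when 6.93% of all genes did.

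**Figure D2:**
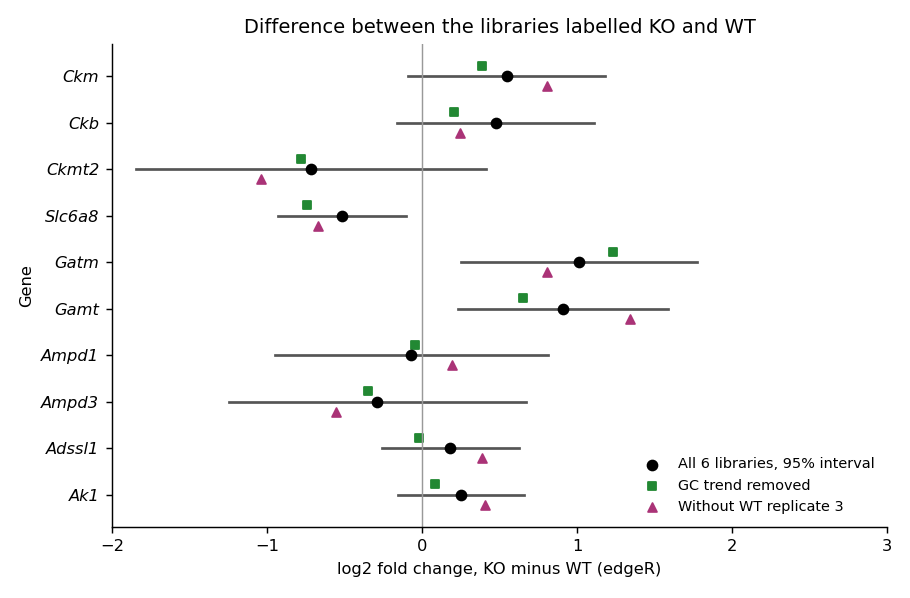
Log2 fold change (KO minus WT) of each gene on the horizontal axis, with all 6 libraries (black, with 95% interval), with the GC trend removed (green squares) and without WT 3 (purple triangles). The intervals of *Gamt*, *Gatm* and *Slc6a8* exclude 0 before adjustment over all genes, while that of *Ckmt2* runs from -1.85 to 0.41.

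*Ckm*, the cytosolic creatine kinase of mature fibers, was at 28444, 27359 and 36538 TPM in WT 1, 2 and 3, and at 41979, 41486 and 43149 in the libraries labelled KO 1, 2 and 3. All 3 values labelled KO lay above all WT values, and they differed among themselves by only 1.04 times. In normalized CPM the mean was 20232 ± 5668 (SD, n = 3) in WT and 29534 ± 1232 (SD, n = 3) under the KO label. This made a log2 fold change of 0.55 ± 0.27 (standard error, SE, edgeR adjusted p = 0.194), with a 95% interval from -0.090 to 1.18. WT 3 lay between the other two WT libraries and the KO values, and without WT 3 the log2 fold change was 0.80 (edgeR adjusted p = 0.00913). On quantile-normalized log2(FPKM + 1) it was 0.21 (limma adjusted p = 0.822). That scaling gives the few most abundant genes of each library the same set of values, and its part in this value was not tested. With the GC trend removed the log2 fold change was 0.39 (edgeR adjusted p = 0.375). An antisense gene, *A930016O22Rik*, overlaps *Ckm* and shares 5.71% of its stretches of 100 bases.

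*Ckmt2*, the mitochondrial enzyme that loads creatine with phosphate, was at 3459, 3773 and 1205 TPM in WT and at 802, 2408 and 1350.3 under the KO label. The groups overlapped, and the spread within each was wide: the highest library exceeded the lowest by 3.13 times in WT and by 3.00 times under the KO label. The log2 change, KO minus WT, was -0.72 ± 0.48 (SE, edgeR adjusted p = 0.322, 95% interval -1.85 to 0.41). It was -0.40 without KO 1, -0.45 without WT 2 and -1.22 without KO 2. WT 1, WT 2 and the library labelled KO 2 were the 3 highest. The same 3 libraries were highest in the sum of 10 slow-fiber markers, at 6900, 6287 and 3519 TPM, against 531, 823 and 1057 in WT 3, KO 1 and KO 3. All 10 slow-fiber markers were detected and had a log2 fold change below 0, from 531 to 6900 TPM in WT and from 823 to 3519 under the KO label in sum, and 0 of them passed the adjusted threshold or an unadjusted p under 0.05 in edgeR's test. DESeq2 called 0 of them. WT 1, WT 2 and KO 2 were also highest in the sums of erythroid, smooth muscle, fibroblast and adipocyte markers. The part of all these markers in the level of *Ckmt2* was not tested. An antisense gene, *1700119I11Rik*, overlaps *Ckmt2*.

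**Figure D3:**
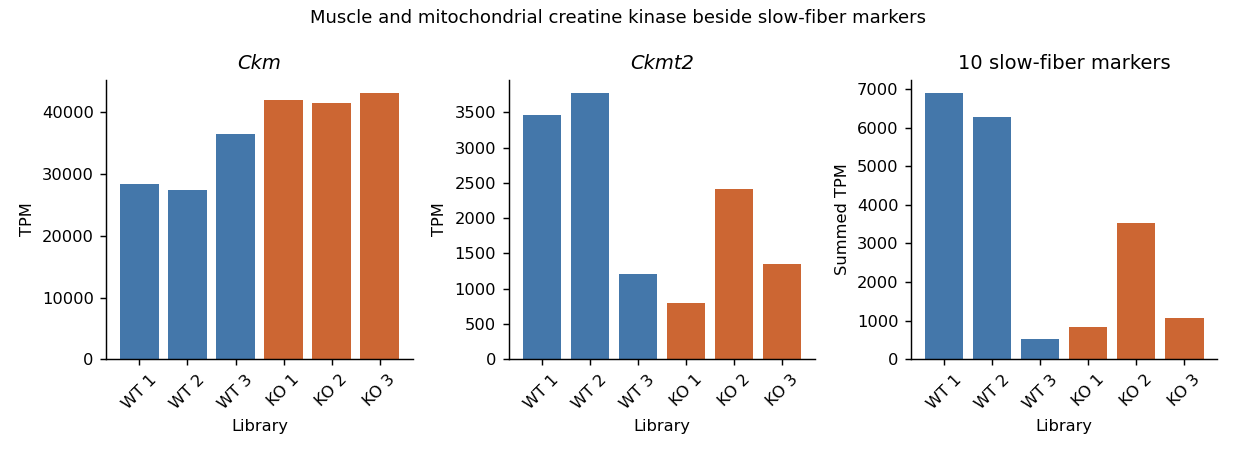
Bars give the TPM of *Ckm* (left) and *Ckmt2* (middle) and the summed TPM of 10 slow-fiber markers (right) in each library, WT in blue and KO-labelled in orange. The libraries WT 1, WT 2 and KO 2 are highest for both *Ckmt2* and the slow-fiber markers, whereas *Ckm* is lowest in WT 1 and WT 2.

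*Ckb*, the brain form of the cytosolic enzyme, was at 6.23, 4.96 and 2.54 TPM in WT and at 6.53, 5.91 and 4.80 under the KO label, from 112 to 270 counts a library. The groups overlapped, with WT 3 the lowest. Its log2 change, KO minus WT, was 0.48 ± 0.27 (SE, edgeR adjusted p = 0.25, 95% interval -0.16 to 1.11). It was 0.24 without WT 3 and 0.20 with the GC trend removed. Of its stretches of 100 bases 4.54% also lie in the transcript *Gm12892*, so a small part of its reads could be assigned to either.

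Within the family, *Ckm* gave between 87.9% and 98.1% of all creatine kinase TPM and *Ckmt2* between 1.87% and 12.1%. *Ckb* never exceeded 0.0195%. The other mitochondrial form, *Ckmt1*, had at most 4 counts in a library. It was at 0.0948 TPM in WT 1 and 0.120 in WT 2, and listed at 0 in WT 3 and in every library labelled KO. The log2 ratio of *Ckm* to *Ckmt2* within a library, which no scaling between libraries can alter, was 3.04, 2.86 and 4.92 in WT and 5.71, 4.11 and 4.998 under the KO label. The mean was 3.61 ± 1.14 in WT and 4.94 ± 0.803 under the KO label (SD, n = 3 each; two-sided exact permutation p = 0.2, adjusted over 4 ratios 0.4). WT 3 lay above KO 2, so the groups overlapped. The ratio of *Ckm* to *Ckb* ran from 4569 to 14362 times over the 6 libraries, with group means of 12.80 and 12.85 on the log2 scale (exact permutation p = 1, n = 3 each), and its widest values, at both ends, were in WT.

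Creatine transport and synthesis held the 3 genes with the smallest unadjusted p-values of the list. *Slc6a8*, the creatine transporter (gene 102857, chromosome X from 73673133 to 73682502), was at 111, 112 and 64.3 TPM in WT and at 54.4, 65.9 and 61.9 under the KO label. WT 1 and WT 2 stood well above the rest, while WT 3 lay among the libraries labelled KO on TPM and just above them on normalized CPM (131.9 against 131.1 for KO 2). Its log2 change, KO minus WT, was -0.52 ± 0.18 (SE, edgeR adjusted p = 0.0856, 95% interval -0.93 to -0.10). It was -0.74 with the GC trend removed, and -0.67 without WT 3 (edgeR adjusted p = 0.0122).

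*Gamt*, which methylates guanidinoacetate to creatine (gene 14431, chromosome 10 from 80258151 to 80261025), was at 10.3, 11.6 and 18.5 TPM in WT and at 25.0, 25.3 and 22.2 under the KO label. The groups did not overlap, and again WT 3 was the WT library nearest to the KO values. The log2 fold change was 0.91, or 1.88-fold (standard error 0.29, edgeR adjusted p = 0.0708, 95% interval 0.23 to 1.58). It was 1.34 without WT 3 (edgeR adjusted p = 0.00473) and 0.65 with the GC trend removed (edgeR adjusted p = 0.184); the longest *Gamt* transcript has a GC content of 59.7%.

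*Gatm*, which makes guanidinoacetate (gene 67092, chromosome 2 from 122594473 to 122611277), was at 2.33, 3.14 and 1.36 TPM in WT and at 3.36, 3.43 and 5.64 under the KO label. The groups did not overlap, though WT 2 and KO 1 were close and KO 3 stood above the rest. The log2 fold change was 1.01, or 2.01-fold (standard error 0.33, edgeR adjusted p = 0.0731, 95% interval 0.25 to 1.77), on counts of 96 to 370 a library. Unlike *Gamt*, this gene has a low GC content (43.2%), and its log2 fold change was 1.23 with the GC trend removed (edgeR adjusted p = 0.0631). It was 0.81 without WT 3, 0.71 without KO 3 and 0.57 in limma on log2(FPKM + 1). Neither synthesis gene nor the transporter passed the adjusted threshold.

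In the purine nucleotide cycle, *Ampd1*, the AMP deaminase of muscle (gene 229665, chromosome 3 from 103073897 to 103099720), was at 779, 892 and 1111 TPM in WT and at 1389, 579.6 and 555 under the KO label. The group labelled KO held both the highest and the lowest libraries, KO 1 being 2.50 times KO 3. The log2 change, KO minus WT, was -0.070 ± 0.38 (SE, edgeR adjusted p = 0.912), with a 95% interval from -0.95 to 0.81. It was -0.59 without KO 1, and 0.20, 0.14 and 0.14 without WT 3, KO 2 and KO 3.

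*Ampd3*, the second AMP deaminase (gene 11717, chromosome 7 from 110767790 to 110812409), was at 9.15, 14.3 and 4.86 TPM in WT and at 5.13, 10.9 and 5.13 under the KO label. WT 2, KO 2 and WT 1 were the 3 highest, the libraries also highest in *Ckmt2* and in slow-fiber markers. They were highest in the sum of 7 erythroid markers too, at 1020.2 TPM in WT 1, 998 in WT 2 and 506 in KO 2, against 122 in WT 3, 351 in KO 1 and 240.0 in KO 3. WT 1, WT 2 and KO 2 were also highest in the sums of smooth muscle, fibroblast and adipocyte markers. This was not so for Schwann cell, endothelial, macrophage or satellite cell markers. The part of all these marker lists in the level of *Ampd3* was not tested. The groups overlapped, the log2 change being -0.29 ± 0.41 (SE, edgeR adjusted p = 0.646, 95% interval -1.25 to 0.67). It was 0.13 without WT 2 and between -0.75 (without KO 2) and -0.081 (without KO 1) in the other fits without 1 library. *Ampd3* overlaps *Rnf141* on the other strand, and 3.11% of its stretches of 100 bases are shared with it or with *B430319F04Rik*.

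*Ampd1* made up 97.8% to 99.5% of AMP deaminase TPM in every library, and *Ampd3* 0.367% to 1.84%. The log2 ratio of *Ampd1* to *Ampd3* was 6.74 ± 0.979 in WT and 6.86 ± 1.18 under the KO label (SD, n = 3 each; exact permutation p = 0.8), and ranged from 53.1 to 271 times over the libraries. The ratio was highest in KO 1 and lowest in KO 2, both under the KO label.

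*Adssl1*, the muscle adenylosuccinate synthetase (gene 11565, chromosome 12 from 112620047 to 112641355), was at 1157, 991 and 1297 TPM in WT and at 1170.1, 1236 and 1243 under the KO label. Its groups overlapped, at a log2 fold change of 0.18 ± 0.19 (standard error, edgeR adjusted p = 0.526, 95% interval -0.26 to 0.62). It was -0.017 with the GC trend removed and 0.39 without WT 3 (edgeR adjusted p = 0.0375).

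*Ak1*, the cytosolic adenylate kinase of muscle (gene 11636, chromosome 2 from 32621758 to 32635058), was at 1290.5, 1275 and 1420.5 TPM in WT and 1381, 1513 and 1527 under the KO label. Its groups overlapped through WT 3, the log2 change being 0.25 ± 0.17 (SE, edgeR adjusted p = 0.332, 95% interval -0.15 to 0.66). It was 0.41 without WT 3 (edgeR adjusted p = 0.0397). The log2 ratio of *Ak1* to *Ckm* was -4.46, -4.42 and -4.68 in WT and -4.93, -4.78 and -4.82 under the KO label. It was lower in every library labelled KO, by a mean of 0.32 on the log2 scale (SD 0.141 in WT and 0.0768 under the KO label, n = 3 each; two-sided exact permutation p = 0.1, the smallest possible, and 0.4 adjusted over 4 ratios).

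Around these genes, some minor isozymes of the same enzyme families passed the threshold. Of 7 other adenylate kinase and AMP genes tested, 4 passed edgeR's adjusted threshold, against 16.2% of all genes, with a median log2 fold change of -0.31. *Ampd2*, the AMP deaminase of non-muscle tissues, rose from 1.41 ± 0.498 to 2.90 ± 0.474 TPM (SD, n = 3 each; log2 change 1.16 with standard error 0.23, edgeR adjusted p = 0.0225), with all 3 values labelled KO above all WT values. *Adss*, the non-muscle adenylosuccinate synthetase, fell from 14.9 ± 2.28 to 9.42 ± 0.494 TPM (log2 change -0.53 with standard error 0.12, edgeR adjusted p = 0.0313).

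*Ak3*, an adenylate kinase of the mitochondrial matrix, was at 74.8, 77.6 and 53.3 TPM in WT and at 42.1, 40.0 and 40.0 under the KO label; it fell by 0.63 on the log2 scale (standard error 0.11, edgeR adjusted p = 0.0172). *Adsl*, the lyase of the cycle and the most abundant gene of this list, was at 74.0 ± 9.61 and 79.7 ± 7.14 TPM (SD, n = 3 each; edgeR adjusted p = 0.252). The genes *Ckmt1*, *Ak5*, *Ak7* and *Ak8* were too low to test. The 4 calls of this list fell to 1 with the GC trend removed, when 6.93% of all genes were called. They fell to 1 without WT 1 or KO 2, and to 0 without WT 2, KO 1 or KO 3. Over all genes the calls then numbered 440, 873, 249, 8 and 13. Without WT 3 the list had 4 calls, when 32.5% of all genes were called.

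*Adss* made up 0.946% to 1.68% of adenylosuccinate synthetase TPM in WT and 0.752% to 0.787% under the KO label. *Ak1* made up 87.8% to 90.7% of adenylate kinase TPM in WT and 91.5% to 93.0% under the KO label, and *Ak3* 3.40% to 5.35% and 2.44% to 2.79%. The WT and KO ranges did not overlap for any of these genes. On normalized CPM the groups lay apart in 40.0% of all genes, so this is no result about these shares. The shares of *Ak1* and *Ak3* are parts of the same total and are not separate observations. These shares were not tested.

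The 6 genes listed as creatine shuttle partners were mostly adenine nucleotide carriers and channels of the outer membrane of mitochondria. All 6 had log2 fold changes below 0, with a median of -0.41, as had 7121 of all 13801 genes tested. The least abundant, of neither kind, rested on 22 to 55 counts a library. Only *Vdac2* passed the threshold, 1 of 6 and near the 16.2% of all genes, falling by 0.43 from 508 ± 42.4 to 348 ± 18.5 TPM (standard error 0.12, edgeR adjusted p = 0.0494). The most abundant, the carrier *Slc25a4*, was at 7801 ± 1116 and 6112 ± 775 TPM (SD, n = 3 each; log2 fold change -0.23, edgeR adjusted p = 0.389). The call of *Vdac2* was lost with the GC trend removed and with no filter on low counts. It was also lost with the replicate number as a block (edgeR adjusted p = 0.0703) and without WT 1, WT 2, KO 1, KO 2 or KO 3. In the fit without KO 2, 1 other gene of the list passed, as did 1 with the replicate block. Without WT 3, 2 genes passed, when 32.5% of all genes did.

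The list of purine salvage and breakdown took in nucleotidases as a family. Of its 21 genes tested, 1 was called higher and 3 lower, at a median of -0.20. Of all genes 7.85% were called higher and 8.39% lower, so this count was near the background and is no result about the list. *Gda*, guanine deaminase, fell from 7.74 ± 1.57 to 3.43 ± 0.822 TPM (log2 change -1.05 with standard error 0.19, edgeR adjusted p = 0.018), and was the one gene of this list that passed with the GC trend removed. *Nt5c3*, a cytosolic nucleotidase whose part in purine breakdown was not tested, fell by 0.66 on the log2 scale (edgeR adjusted p = 0.0234). *Hprt*, which salvages hypoxanthine to IMP, fell by 0.46 (edgeR adjusted p = 0.0331). *Aprt*, which salvages adenine, rose by 0.46 (edgeR adjusted p = 0.0408). *Gmpr*, GMP reductase and the most abundant of the list, was at 206 ± 13.4 and 218 ± 16.8 TPM (SD, n = 3 each; edgeR adjusted p = 0.275). The list's 4 calls became 7 without WT 3, when 32.5% of all genes were called. They became 1 without WT 1 or KO 2, and 0 without WT 2, KO 1 or KO 3. Over all genes the calls then numbered 440, 873, 249, 8 and 13, so these counts are no result about the list.

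Of 12 genes of purine synthesis de novo, 1 was called in each direction, at a median of 0.16, again near the 16.2% of all genes called in either direction. *Impdh1*, which leads IMP towards GMP, rose by 0.61 on the log2 scale (standard error 0.14, edgeR adjusted p = 0.0321), and *Gmps*, which acts next on that branch, fell by 0.46 (standard error 0.12, edgeR adjusted p = 0.0374). *Paics*, the most abundant of the list, was at 112 ± 7.45 and 88.4 ± 5.17 TPM (SD, n = 3 each; edgeR adjusted p = 0.153). These 2 calls were lost with the GC trend removed and without WT 1, WT 2, KO 1, KO 2 or KO 3. Without WT 3, 4 genes passed, when 32.5% of all genes did. The GC content of the longest transcript was 58.9% for *Impdh1* and 58.9% for *Aprt*, which rose, and 39.0% for *Gmps*, 40.1% for *Hprt*, 41.6% for *Nt5c3* and 42.7% for *Gda*, which fell. The part of GC content in these calls was not tested beyond the correction.

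**Figure D4:**
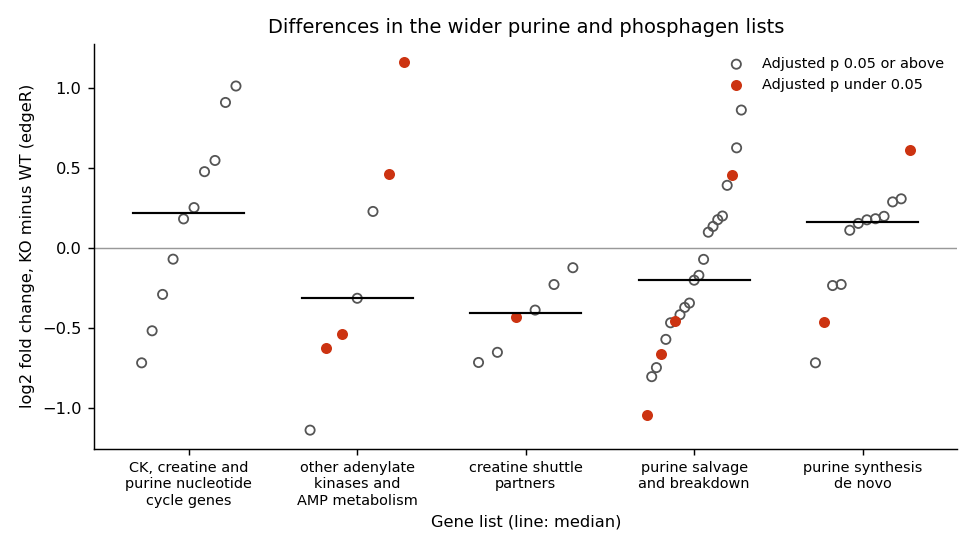
Log2 fold change (KO minus WT) of every tested gene in the 10-gene list and the 4 wider lists; filled red points passed an adjusted p under 0.05 in edgeR's test and black lines are medians. No point of the 10-gene list is filled, against 4 of 7, 1 of 6, 4 of 21 and 2 of 12 in the other lists and 16.2% of all genes.

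Across the 11318 tested genes with a mean of at least 1 TPM, profiles over the 6 libraries were compared by the root mean square distance of centred log2 CPM. Nearest to *Ckm* were *Sbf1* at 0.0362, *Zfp398* at 0.0483 and *Uqcc3* at 0.0565 on the log2 scale, with log2 fold changes of 0.56, 0.54 and 0.61 and edgeR adjusted p-values of 0.069, 0.122 and 0.0603. Nearest to *Ampd3* were *Lrg1* at 0.176, *Mdh1* at 0.176 and *Ppm1k* at 0.19. *Mdh1*, the cytosolic malate dehydrogenase, was at 864, 1066 and 482 normalized CPM in WT and 423, 831 and 511 under the KO label. Like *Ampd3*, it was highest in WT 1, WT 2 and KO 2. These neighbours were chosen by likeness over the same 6 libraries, so their shared high libraries and near fold changes follow from the choice.

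Markers of other cells were read beside the low genes of the list, *Ckb* and *Gatm* and of the muscle itself. Of 5 smooth muscle markers only *Cnn1* passed the threshold (lower under the KO label), and their sum was 44.1 to 113 TPM in WT and 45.2 to 55.0 under the KO label. *Tagln* of the same list had a log2 change of -0.53 at an unadjusted p under 0.05. Of 5 Schwann cell markers 1 passed (lower), and *Sox10* had a log2 change of 1.64 at an unadjusted p under 0.05, with sums of 8.97 to 28.3 and 8.13 to 17.0 TPM. The sums were 67.7 to 148 and 79.8 to 84.9 for 5 endothelial, 354 to 801 and 352 to 414 for 4 fibroblast, 2.69 to 37.7 and 14.6 to 66.1 for 5 adipocyte, and 8.21 to 80.4 and 11.2 to 35.7 for 4 macrophage markers, with no call in edgeR's adjusted test among these lists and 2, *Pecam1* and *Dcn*, by DESeq2 (*Pecam1*, *Tek*, *Col1a1* and *Dcn* had an unadjusted p under 0.05). Of 7 erythroid markers, 5 were tested, with 0 called, 0 at an unadjusted p under 0.05 and 0 called by DESeq2, and the sum was 122 to 1020.2 TPM in WT and 240.0 to 506 under the KO label. Of 3 satellite cell markers *Pax7* and *Myf5* rose, while the third, *Chrdl2*, was at 2.49 ± 1.32 and 1.31 ± 0.363 TPM (SD, n = 3 each; log2 change -0.76, edgeR adjusted p = 0.224), and the sum was 2.29 to 5.60 and 4.22 to 6.08 TPM. Of 10 fast-fiber markers 8 had a log2 fold change above 0 and 0 were called (2 by DESeq2, *Atp2a1* and *Tnnc2*), *Tnnc2* having an unadjusted p under 0.05. The part of these markers in the values of *Ckb* and *Gatm* was not tested.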

How the data were processed

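GAS muscle of 3 WT and 3 *Sirt6* KO mice was profiled with 1 library per animal. The authors deposited 3 values for each gene and library, made with StringTie. The deposited counts are raw and whole, the deposited FPKM are divided by length and depth, and the deposited TPM add up to nearly the same sum in every library. The submitters' processing notes name mm10, HISAT2 2.1.0, Bowtie2 2.3.4.1 and StringTie 2.1.3b, while the reporting summary names STAR; strand use in counting is not given in the sources used here. The methods and labels name different library kits, and the methods and reporting summary different *Sirt6* flox lines.

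Counts were fitted in R 4.3.3 with edgeR 4.0.16 (filterByExpr, TMM, quasi-likelihood test, group as the single factor), with Benjamini-Hochberg adjustment over 13801 genes at 0.05; standard errors were derived from the test. The common biological coefficient of variation was 24.1%, and 1 count was worth 0.0159 to 0.0223 CPM before TMM. The code was tested on simulated data. Ratios within a library were tested by exact permutation, where 3 against 3 allow no p under 0.1. Alternatives were DESeq2 1.42.0, its size factors, other filters, limma 3.58.1 after quantile normalization of the FPKM (log2, pseudocount 1 or 0.1), the replicate block and each library left out. A GC correction (lowess span 0.3, 13715 genes with GENCODE M21 transcripts) and TMM without *Ckm* were chosen after seeing the data. The 10 genes and the wider lists were chosen with earlier results of these data known. Every gene of the 10-gene list was named, and of each wider list up to 4 called genes of smallest p and the most abundant; the marker genes named by call or unadjusted p, *Pecam1*, *Tek*, *Col1a1*, *Dcn*, *Tnnc2*, *Atp2a1*, *Cnn1*, *Tagln*, *Sox10*, *Chrdl2*, *Pax7* and *Myf5* among them, and the untested genes were chosen after their values were seen. Gene positions come from RefSeq on GRCm38.p6, matched for 24462 of 24532 genes. *Ak9* was not analysed here, and some genes of the lists are counted but not reported by name here.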

Additional observations from a re-analysis of the deposited data

How the results depend on the processing

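With DESeq2, 4 of the 10 genes passed, 3 of the shuttle partners and 7 of the salvage genes. Of all genes given an adjusted p, 24.4% were called, 1667 of them higher. With the GC trend removed, 1 of the 10 genes passed, with 1 adenylate kinase and AMP gene, 0 shuttle partners, 1 salvage gene and 0 synthesis genes, and 468 genes were called higher and 483 lower in all. Shuttle partners numbered 0 with no filter on low counts and 2 under either limma fit; synthesis genes numbered 1 with limma on log2(FPKM + 1). Leaving out 1 library gave 0 to 5 of the 10 genes, 0 to 4 adenylate kinase and AMP genes, 0 to 2 shuttle partners, 0 to 7 salvage genes and 0 to 4 synthesis genes, and 6 to 2363 genes higher and 2 to 2219 lower in all, lowest without KO 1 and highest without WT 3. The sign turned, with no call in either fit, for *Ampd1* without WT 3 (0.20), KO 2 (0.14) and KO 3 (0.14), against -0.59 without KO 1, for *Ampd3* without WT 2 (0.13), against -0.75 without KO 2, and with the GC trend removed for *Adssl1* (-0.017) and *Gmpr* (-0.034). *Ckm*, *Ckmt2*, *Ckb*, *Slc6a8*, *Gamt*, *Gatm* and *Ak1* kept their sign in the 9 other alternatives and in the 6 fits without 1 library. The 4 ratios moved by less than 1 SD throughout. Leaving out 1 library cannot move a group mean by that much, so this bound does not show that they are stable. Without 1 library the difference in the ratio of *Ckm* to *Ckb* lay between -0.27 and 0.56. That of *Ampd1* to *Ampd3* lay between -0.49 and 0.68, so both changed sign. The cause of these changes was not tested.

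The shared replicate numbers gave no clear pairing of the libraries. Deviations from the group means correlated at -0.137, 0.336 and 0.22 for numbers 1, 2 and 3 across genes. WT 2 correlated best with KO 2, but so did WT 1, and WT 3 correlated best with KO 1. Deviations from a mean of 3 libraries depend on each other, so these values cannot exclude a pairing. With the replicate block, 0 of the 10 genes passed, with 1 synthesis gene and, over all genes, 904 higher and 1018 lower. Of the lowest genes, *Ckb* and *Gatm* rest on 96 to 370 counts a library.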
